A study of Homo sapiens with 16 samples.

Results

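The MYC and MAX network factors were read from 21 array probes for 10 genes (MYC, MYCN, MAX, MXD1, MXD3, MXD4, MXI1, MNT, MLX and MGA), out of 50599 probes and 32080 gene symbols on the array. A probe was a member when the gene name printed for it in the scanner files was one of these 10, and every probe was kept apart. MYC had 2 probes, MYCN 1, MAX 3, MXD1 2, MXD3 2, MXD4 2, MXI1 3, MNT 2, MLX 2 and MGA 2. All 21 were well above background in every array of at least 1 group of RPMI-8226, and 20 of the 21 met that filter in MM.1S.

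The samples came from RPMI-8226 and MM.1S, permanent lines derived from multiple myeloma, a cancer of plasma cells, and grown in culture without other cells. Each line was given DMSO (the solvent control), GSK126 (1 µM), UNC0638 (1 µM) or GSK126 + UNC0638 (both at 1 µM) for 6 days. GSK126 inhibits EZH2, the enzyme that writes the repressive H3K27 methyl mark, and UNC0638 inhibits G9a and its partner GLP, which write H3K9 methylation. Total RNA of 2 replicates per group was hybridised on 16 1-colour Agilent arrays, and the array data were collected to show how gene expression responds to the combined inhibitors.

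MYC and its relative MYCN are transcription factors that bind DNA only when paired with MAX, and the pairs activate genes for ribosome production, metabolism and cell division. MXD1, MXD3, MXD4, MXI1 and MNT compete for MAX and, by recruiting SIN3 corepressor complexes, silence many of the same genes. MLX pairs with MXD and MNT proteins and with the glucose sensors MLXIP and MLXIPL, and MGA pairs with MAX inside a repressive polycomb-like complex. In myeloma MYC is often activated by chromosomal rearrangement and is sustained by the plasma cell factor IRF4.

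Values are log2 of the background-subtracted signal minus log2 of the same array's 75th percentile, so that 0 is the level of that percentile and a difference of 1 is a 2-fold change. Probes differ in how well they hybridise, so levels were compared between samples for 1 probe and not between probes. The 1 exception was the gene lists, where the probe with the highest mean was chosen for a gene. A change was called when limma's moderated test, adjusted over all probes of a fit by Benjamini-Hochberg, gave p under 0.05, and each such share over all probes is given beside the members' count. Comparisons against DMSO in a line use the same 2 DMSO arrays. The study calls the array samples biological replicates, and the sources used here do not say how their cultures were kept apart, so p-values measure only the spread between these samples.

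The 75th percentile lay between an intensity of 256 and 349 on the RPMI-8226 arrays and between 431 and 477 on the MM.1S arrays, and 46.5% to 52.8% of spots were well above background. All 9 plasma cell markers checked were above background on all 8 arrays of each line, against 1 of 5 B cell markers in each line. Markers of T and NK cells (3 of 6), monocytes (2 of 4) and stroma or epithelium (3 of 5 in RPMI-8226 and 1 of 5 in MM.1S) were also above background on all 8 arrays of a line, and their part in the results was not tested. The 8 arrays of each line lay on a slide of their own, so that a slide effect and a cell line effect cannot be told apart where levels of the lines are compared, whereas each treatment was compared with DMSO on the same slide.

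The promoters of the members were searched for the E-box CACGTG, which MYC-MAX and the MAX-bound repressors recognise and which reads alike on both strands. RefSeq (GRCh38.p14) gave 14 promoters for 9 members, with none used here for MYC. In the 250 bases before the start site, 3 of the 14 held CACGTG, namely those of MXD4, MNT and MLX, against 6.34% of 35116 promoters searched the same way. These 3 are printed 5′ to 3′ on the gene's strand because each of these genes had 2 probes called in MM.1S given GSK126 + UNC0638, with the E-box in capitals. The MXD4 promoter is chr4:2262110-2262359 (minus strand), that of MNT chr17:2401061-2401310 (minus strand) and that of MLX chr17:42566850-42567099 (plus strand).
MXD4 promoter: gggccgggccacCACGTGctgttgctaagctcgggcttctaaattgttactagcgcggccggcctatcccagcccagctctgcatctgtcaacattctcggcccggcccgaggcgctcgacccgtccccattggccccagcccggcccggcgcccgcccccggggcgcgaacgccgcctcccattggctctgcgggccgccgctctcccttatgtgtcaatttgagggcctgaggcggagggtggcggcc
MNT promoter: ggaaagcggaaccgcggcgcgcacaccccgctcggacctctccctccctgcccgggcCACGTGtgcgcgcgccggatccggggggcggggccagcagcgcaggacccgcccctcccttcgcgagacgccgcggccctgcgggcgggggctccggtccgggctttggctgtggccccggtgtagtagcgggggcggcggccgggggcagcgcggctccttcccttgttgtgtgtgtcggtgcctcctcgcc
MLX promoter: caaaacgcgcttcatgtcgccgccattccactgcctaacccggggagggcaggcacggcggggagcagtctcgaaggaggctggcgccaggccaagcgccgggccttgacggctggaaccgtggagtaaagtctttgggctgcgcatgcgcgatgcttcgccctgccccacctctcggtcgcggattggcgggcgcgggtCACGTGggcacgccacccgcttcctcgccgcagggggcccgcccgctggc
The E-box began 238 bases before the start site in MXD4, 193 in MNT and 50 in MLX. The match describes these letters and is not a measured binding site. Of the same 14 promoters, 3 held the E2F motif TTTNGCGC on either strand (MYCN and 2 of MGA), against 1.51% of all promoters.

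MYC fell most clearly in MM.1S. The probe for its mRNA (A_23_P215956, chromosome 8, GRCh37) was printed in 10 spots on each array, and the SD of log2 signal between those spots was 0.029 to 0.079. In MM.1S its level was 5.80 and 5.59 with DMSO, 5.52 and 5.44 with GSK126, 4.66 and 4.43 with UNC0638, and 4.05 and 3.92 with the combination. The 4 groups did not overlap, and every array given UNC0638, alone or with GSK126, was below every array without it. Against DMSO, MYC mRNA was 3.27-fold lower with the combination (log2 change -1.71 ± 0.12 SE, n = 2 per group, limma adjusted p = 0.000282) and 2.21-fold lower with UNC0638 (-1.15 ± 0.12, limma adjusted p = 0.00287). With GSK126 alone the change was -0.21 ± 0.12 and did not pass the test (limma adjusted p = 0.30).

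The combination was compared with each single agent as well. In MM.1S, MYC mRNA was lower with the combination than with GSK126 (-1.50 ± 0.12, limma adjusted p = 0.00124) and than with UNC0638 (-0.56 ± 0.12, limma adjusted p = 0.0368). The second of these calls was lost in 12 of 18 other settings, among them leaving out any 1 of the MM.1S arrays, where the change ranged from -0.68 to -0.45.

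In RPMI-8226 the same probe read 6.90 and 6.87 with DMSO, 6.64 and 6.77 with GSK126, 6.91 and 6.95 with UNC0638, and 6.05 and 6.52 with the combination. Both combination arrays were the lowest of the line, replicate 2 by a narrow margin. The change against DMSO was -0.60 ± 0.18 with the combination (limma adjusted p = 0.08), -0.18 ± 0.18 with GSK126 (adjusted p = 0.77) and 0.05 ± 0.18 with UNC0638 (adjusted p = 0.97), and none passed the test. The combination value rested on its 2 arrays unequally, at -0.84 without replicate 2 and -0.36 without replicate 1 (limma adjusted p = 0.0474 and 0.32). It passed under 4 of 18 other settings, the first of these omissions among them, and ranged from -0.84 to -0.31 over all.

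The response of MYC mRNA to UNC0638 differed between the lines. The log2 change in RPMI-8226 minus that in MM.1S was 1.19 ± 0.22 for UNC0638 (limma adjusted p = 0.0216) and 1.11 ± 0.22 for the combination (limma adjusted p = 0.0103), but 0.03 ± 0.22 for GSK126 (adjusted p = 0.97). The UNC0638 difference kept its direction but missed the threshold when any of 5 arrays was left out (RPMI-8226 DMSO replicate 2, either RPMI-8226 UNC0638 array, MM.1S DMSO replicate 1 or MM.1S UNC0638 replicate 2), with values from 1.08 to 1.31 over all omissions. With DMSO, MYC mRNA was 2.28-fold higher in RPMI-8226 than in MM.1S (1.19 ± 0.16, limma adjusted p = 8.11e-05).

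In order of mean level, the 8 groups ran from RPMI-8226 with UNC0638 (6.93 ± 0.03 SD), DMSO (6.88 ± 0.02), GSK126 (6.71 ± 0.09) and the combination (6.28 ± 0.34) to MM.1S with DMSO (5.69 ± 0.14), GSK126 (5.48 ± 0.06), UNC0638 (4.55 ± 0.16) and the combination (3.99 ± 0.09). Within RPMI-8226 no neighbours in this order differed by the test. In MM.1S, DMSO and GSK126 did not differ by the test, and UNC0638 and the combination did.

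**Figure D1:**
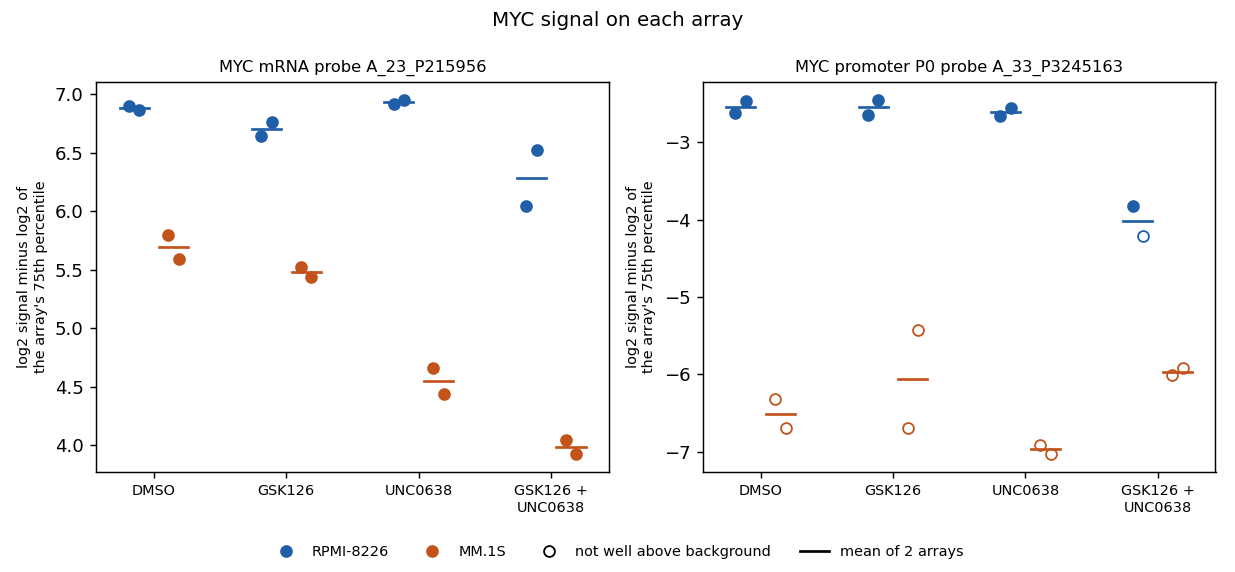
Signal of both MYC probes (log2 minus log2 of the array's 75th percentile) for the 8 groups, with a point for each array, open where it was not well above background, and a bar at the mean of 2 arrays. On the left the MM.1S levels run down from 5.69 to 3.99, and on the right the P0 signal is measured in RPMI-8226 and falls with the combination, while all 8 MM.1S points are open.

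The second MYC probe (A_33_P3245163) represents a transcript that the array annotation assigns to the upstream MYC promoter P0, and it starts 5192 bases 5′ of the mRNA probe. In RPMI-8226 it read -2.61 and -2.46 with DMSO, -2.64 and -2.45 with GSK126, -2.66 and -2.55 with UNC0638, and -3.83 and -4.20 with the combination, where the -4.20 array was not well above background. The 3 groups other than the combination overlapped, and both combination arrays lay below all of them. The signal was lower with the combination than with DMSO (log2 difference -1.48 ± 0.18, limma adjusted p = 0.00443), and it was also lower than with GSK126 (-1.47 ± 0.18, adjusted p = 0.0107) and with UNC0638 (-1.41 ± 0.18, adjusted p = 0.0112). The probe passed the filter only through the groups where it is high, and a filter for all arrays left it out. These tests set measured arrays against values partly at background, so their p-values are given as a description. With 1 of the 2 combination arrays above background the size of the fall is not settled. It also depended on the background correction. Normexp, run with an offset of 50 added to every signal, gave -0.49 against DMSO, which still passed. Against the single agents it gave -0.55 and -0.45, which did not pass. Such an offset makes log2 changes of dim probes smaller. The call against UNC0638 was also lost without either RPMI-8226 UNC0638 array (-1.46 and -1.36, limma adjusted p = 0.0693 and 0.0765).

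In MM.1S the P0 probe was not well above background on any of the 8 arrays. With DMSO the RPMI-8226 signal was at least 4.75-fold higher than in MM.1S, taking the lowest signal well above background on each MM.1S array as the limit. This bound holds for the processed signal only, since normexp put the 2 group means 1.22 apart on the log2 scale, which is less than the bound.

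MYCN, the MYC relative first found in neuroblastoma, rose in MM.1S, where MYC fell. Its probe (A_24_P94402, chr2:16086767-16086826, GRCh37) read -1.17 and -0.92 with DMSO, -0.57 and -0.37 with GSK126, -1.16 and -0.56 with UNC0638, and -0.35 and 0.01 with the combination. Both combination arrays were above all DMSO and UNC0638 arrays, and the rise over DMSO was 1.84-fold (0.88 ± 0.23, limma adjusted p = 0.0199). The call was lost when MM.1S DMSO replicate 1 (0.75) or combination replicate 2 (0.70) was left out. In RPMI-8226 the arrays ran from -3.89 to -2.26 and no change of MYCN was called. The UNC0638 arrays there (-3.29 and -2.78) lay just below the DMSO arrays (-2.64 and -2.74), a change of -0.34 ± 0.43 (limma adjusted p = 0.89), and the other 2 groups overlapped DMSO. With DMSO, MYCN was 3.13-fold lower in RPMI-8226 than in MM.1S (-1.64 ± 0.38, limma adjusted p = 0.00364), and normexp reduced that difference to -0.88, which still passed.

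MAX, the shared dimer partner, was read by 3 probes that the array design files under different transcript variants. That filing does not show that a probe reads its variant only. The first 30 bases are shown because only 1 of the 3 was called with the combination against DMSO in MM.1S.
MAX A_23_P205549 (variant 3, chr14:65542003-65542062): tgaagggttttgtgtgtttaggcctcattt
MAX A_23_P436138 (variant 4, chr14:65550834-65550893): tgattgttttgaccccttacacaaatgtct
MAX A_23_P151662 (variant 6, chr14:65560459-65560518): catcataatgcactggaacgaaaacgtagg
Probe coordinates are GRCh37, and all 3 lie on the minus strand. A_23_P205549 stayed within 3.31 to 3.45 on all 8 MM.1S arrays, and its change with the combination was 0.01 ± 0.09 (limma adjusted p = 0.91). A_23_P151662 changed by -0.21 ± 0.16 (adjusted p = 0.30), with overlapping arrays. A_23_P436138 read -1.62 and -1.52 with DMSO and -1.86 and -2.23 with the combination, a fall of 0.47 on the log2 scale (SE 0.13, limma adjusted p = 0.0241). That call was lost when either DMSO array (-0.52 and -0.42) or combination replicate 2 (-0.29) was left out. No MAX probe was called in RPMI-8226, where the combination changes were -0.31, -0.18 and 0.16.

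Among the MAX-bound repressors MXD4 rose. In MM.1S its probe A_23_P423695 (chr4:2251280-2251339, minus strand, GRCh37) read 0.39 and 0.63 with DMSO, 0.94 and 1.12 with GSK126, 1.21 and 1.39 with UNC0638, and 1.97 and 2.02 with the combination. The 4 groups did not overlap and stood in the reverse order of MYC mRNA. The combination was 2.80-fold above DMSO (1.48 ± 0.12, limma adjusted p = 0.000407) and UNC0638 1.73-fold (0.79 ± 0.12, adjusted p = 0.00766), while GSK126 missed the threshold (0.52 ± 0.12, adjusted p = 0.0563).

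The second MXD4 probe, A_24_P234732 (chr4:2249759-2249818), gave the same order of the extremes. It read -1.35 and -0.86 with DMSO, -0.61 and -0.24 with GSK126, -0.47 and -0.28 with UNC0638, and 0.56 and 0.60 with the combination in MM.1S. The GSK126 and UNC0638 arrays overlapped, and the combination was above all others, 3.22-fold over DMSO (1.69 ± 0.20, limma adjusted p = 0.00105). Both MXD4 probes were higher with the combination than with GSK126 (0.96 and 1.00, adjusted p = 0.00323 and 0.0112) and than with UNC0638 (0.69 and 0.95, adjusted p = 0.0256 and 0.0347). The call of A_24_P234732 against GSK126 was lost without GSK126 replicate 1 (0.82) or combination replicate 2 (0.99). Those against UNC0638 were lost when any 1 of the UNC0638 or combination arrays was left out (0.60 to 0.78 and 0.86 to 1.05 over all omissions). The rise of the second probe with UNC0638 over DMSO (0.73 ± 0.20, limma adjusted p = 0.038) was lost without DMSO replicate 1 (0.49), either UNC0638 array or either combination array. Counting changes of processing as well, it was lost in 9 of 18 other settings, with values from 0.49 to 0.97 over all.

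In RPMI-8226 the first MXD4 probe read -0.81 and -0.94 with DMSO and -0.11 and -0.82 with the combination. Only combination replicate 1 stood apart, and the changes of 0.41 ± 0.24 and 0.89 ± 0.41 for the 2 probes did not pass the test (limma adjusted p = 0.28 and 0.20). The combination response differed between the lines for A_23_P423695 (-1.07 ± 0.28, limma adjusted p = 0.0324) and not by the test for A_24_P234732 (-0.80 ± 0.51, adjusted p = 0.34). The first of these missed the threshold when any of 7 of the 8 DMSO and combination arrays was left out, all but RPMI-8226 combination replicate 1, with values from -1.43 to -0.72 over all omissions. With DMSO, MXD4 was 2.61-fold and 3.07-fold lower in RPMI-8226 than in MM.1S by the 2 probes (limma adjusted p = 0.000159 and 0.00286). Under normexp the log2 difference of the second, -1.62, became -0.79 and still passed.

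MNT, the most widely expressed of the MAX-bound repressors, fell in MM.1S by 2 probes of unequal response, whose first 30 bases are shown for that reason (GRCh37, minus strand).
MNT A_33_P3246733 (chr17:2289632-2289691): ataaggggccttgctctgagcacaggtgac
MNT A_23_P341443 (chr17:2287576-2287635): ggccactgtgtctctgtttcctgaaatata
In MM.1S A_33_P3246733 read -1.56 and -1.80 with DMSO, -2.34 and -2.45 with GSK126, -2.51 and -2.41 with UNC0638, and -3.06 and -3.04 with the combination. All treated arrays were below both DMSO arrays and the combination was the lowest. The falls from DMSO were 2.59-fold with the combination (-1.37 ± 0.11, limma adjusted p = 0.000346), 1.72-fold with UNC0638 (-0.78 ± 0.11, adjusted p = 0.00555) and 1.64-fold with GSK126 (-0.71 ± 0.11, adjusted p = 0.0195). The GSK126 call was lost without DMSO replicate 1 or either GSK126 array, with changes from -0.83 to -0.60 over all omissions. The combination was also lower than GSK126 (-0.66 ± 0.11, limma adjusted p = 0.00611) and than UNC0638 (-0.59 ± 0.11, adjusted p = 0.0259), the latter lost when any 1 UNC0638 or combination array was left out (-0.64 to -0.55). Normexp reduced these combination changes to -0.83 against DMSO, -0.34 against GSK126 and -0.30 against UNC0638, which still passed.

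MNT A_23_P341443 fell less, from 3.61 and 3.47 with DMSO to 3.27 and 2.99 with the combination in MM.1S (-0.41 ± 0.12, limma adjusted p = 0.0297). Quantile normalization reduced that change to -0.13, and it also missed the threshold without either DMSO array (-0.34 and -0.49) or without combination replicate 2 (-0.27). In RPMI-8226 neither MNT probe was called (-0.37 and -0.33 with the combination). The combination response differed between the lines for A_33_P3246733 (1.00 ± 0.18, limma adjusted p = 0.0066, and 0.62 under normexp), whereas for A_23_P341443 the difference was 0.09 ± 0.18 (adjusted p = 0.80).

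In MM.1S 2 of the 3 MXI1 probes fell with UNC0638 given alone, and the other rose with the combination. All 3 probes are shown by their first 30 bases, because A_33_P3263902 and the other pair moved differently (GRCh37, plus strand). The variant beside each probe is the transcript it is filed under. That filing does not show that the probe reads that variant only.
MXI1 A_33_P3263902 (variant 1, chr10:111985981-111986040): aagatgatcaacgtgcagcgtctgctggag
MXI1 A_33_P3383029 (variant 2, chr10:112044747-112044806): acccagcatgacataacagtgcagggcaaa
MXI1 A_23_P161399 (variant 2, chr10:112045945-112046001): agttaagttcagcacttgtctcattttaat
In MM.1S A_33_P3383029 read 0.45 and 0.62 with DMSO, 0.58 and 0.43 with GSK126, -0.35 and -0.16 with UNC0638, and 0.24 and 0.61 with the combination. The 2 UNC0638 arrays were the lowest, and the combination arrays overlapped those of DMSO. The fall with UNC0638 was 1.74-fold (-0.80 ± 0.15, limma adjusted p = 0.0141), and A_23_P161399 fell likewise by 0.71 (SE 0.15, adjusted p = 0.0182), from 1.71 and 1.99 to 1.02 and 1.26. Both calls were lost without DMSO replicate 2 or UNC0638 replicate 1, where the changes lay between -0.71 and -0.57.

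With the combination these 2 MXI1 probes changed by -0.12 and -0.22 against DMSO (limma adjusted p = 0.55 and 0.26), and A_33_P3383029 was 1.60-fold higher than with UNC0638 alone (0.68 ± 0.15, adjusted p = 0.0411). That last call was lost when any 1 MM.1S array other than combination replicate 1 was left out (0.49 to 0.87 over all omissions). A_33_P3263902 instead rose with the combination, from -3.40 on both DMSO arrays to -3.01 and -3.04 (0.38 ± 0.08, limma adjusted p = 0.00843). The UNC0638 and GSK126 arrays lay between -3.53 and -3.38. The rise lost its call under quantile normalization (0.13) and normexp (0.19).

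**Figure D2:**
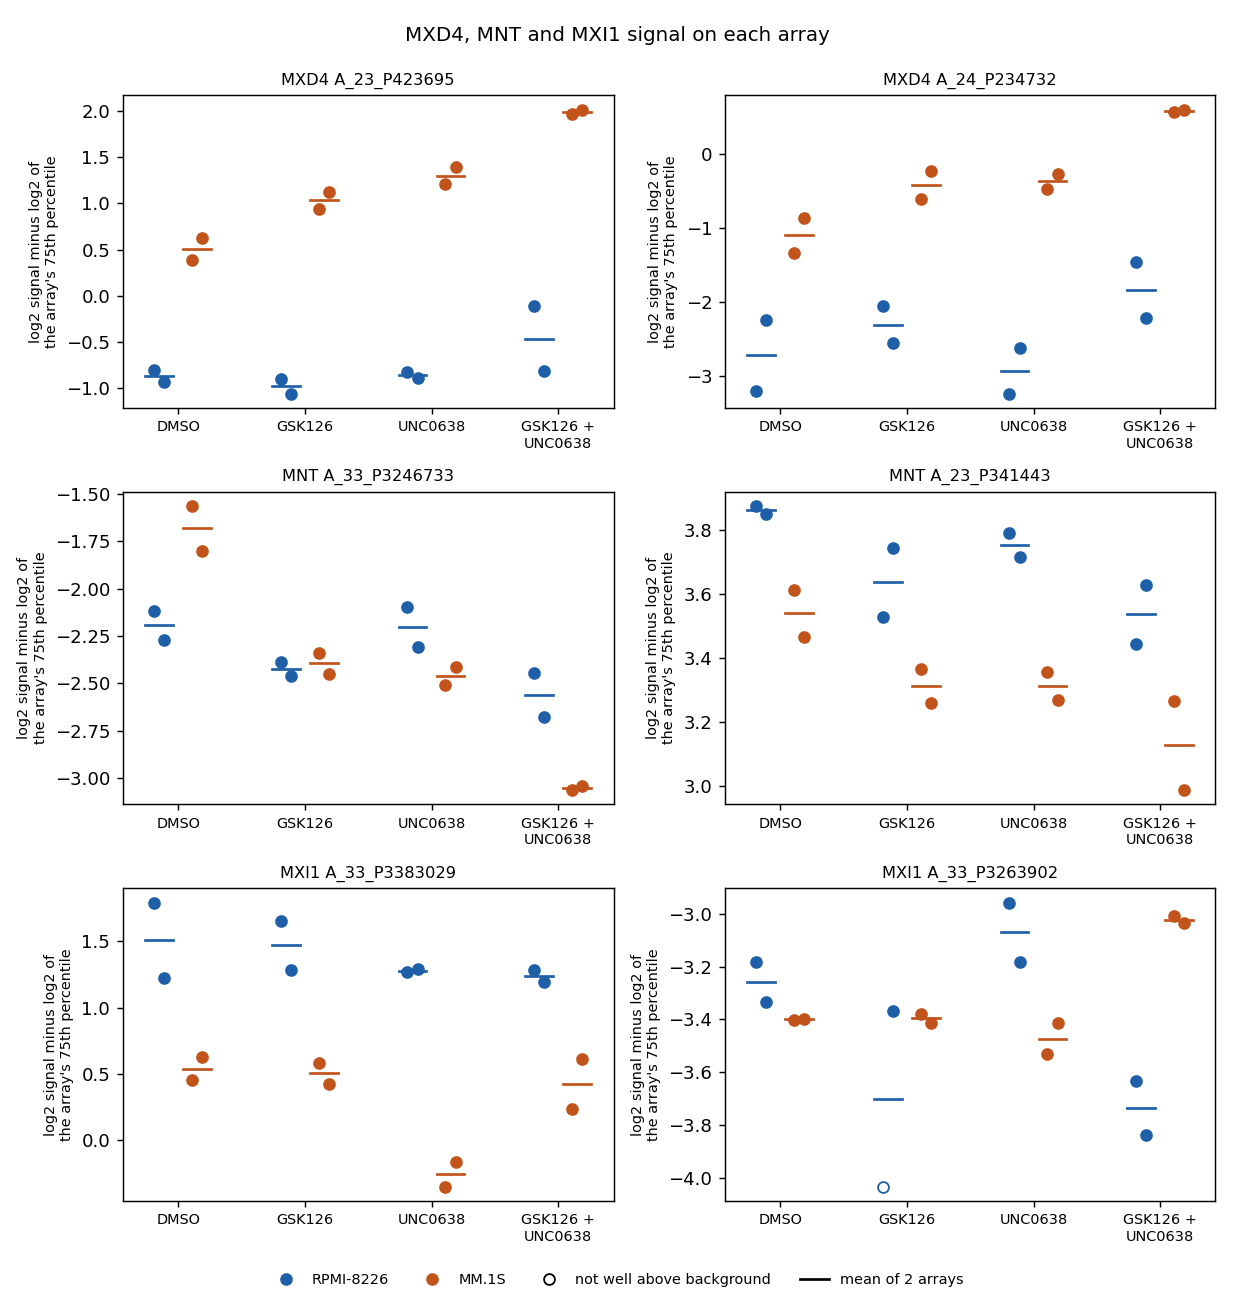
Signal of both MXD4 probes, both MNT probes and 2 MXI1 probes (log2 minus log2 of the array's 75th percentile) on each array of the 8 groups, with a bar at the mean of 2 arrays. In MM.1S MXD4 rises to 2.02 and 0.60 with the combination, MNT A_33_P3246733 falls to -3.06, and MXI1 A_33_P3383029 is lowest with UNC0638 alone.

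MXD1, which rises as many cells differentiate, and MXD3, which is expressed in dividing cells, gave few calls. Neither MXD1 probe was called in any of the 14 comparisons, and the largest change against DMSO, a fall of 0.70 with UNC0638 in MM.1S for A_23_P408094, missed the threshold (limma adjusted p = 0.078). MXD3 was measured well by A_33_P3297255 (chr5:176734216-176734275, minus strand, GRCh37), which read 4.23 and 4.24 with DMSO and 4.03 and 3.82 with the combination in MM.1S. That fall (-0.31 ± 0.10, limma adjusted p = 0.0343) lost its call in 10 of 18 other settings and was -0.004 after quantile normalization. The other MXD3 probe, A_24_P417706, was well above background on 4 of 8 RPMI-8226 arrays and on all 8 MM.1S arrays. In MM.1S it went the other way, with both combination arrays and both UNC0638 arrays above the DMSO arrays, but neither change was called (0.53 ± 0.28 and 0.81 ± 0.28, limma adjusted p = 0.16 and 0.0757). MXD3 had the line difference with the smallest adjusted p of all members, with 2.20 and 2.43 in RPMI-8226 given DMSO and a level 3.79-fold lower than in MM.1S (-1.92 ± 0.11, limma adjusted p = 1.97e-07).

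MLX fell by both its probes in MM.1S. A_19_P00810045 (chr17:40721610-40722044, plus strand, GRCh37) read 0.51 and 0.87 with DMSO and 0.02 and 0.04 with the combination (-0.66 ± 0.15, limma adjusted p = 0.0113). A_23_P164148 (chr17:40724283-40724342) read 2.11 and 2.09 with DMSO and 1.75 and 1.65 with the combination (-0.40 ± 0.08, adjusted p = 0.00899). In both cases the combination arrays were below both DMSO arrays. After quantile normalization the second fell by 0.24 and missed the threshold. With a single agent no MLX probe was called.

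MGA was split between its probes. A_23_P37654 (chr15:42061855-42061914, plus strand, GRCh37) read 1.45 and 1.51 with DMSO, 1.54 and 1.31 with GSK126, 1.26 and 1.02 with UNC0638, and 1.00 and 1.03 with the combination in MM.1S. The combination arrays were below both DMSO and both GSK126 arrays (-0.46 ± 0.12 and -0.41 ± 0.12, limma adjusted p = 0.0197 and 0.0419). The difference from GSK126 was lost when any 1 array other than an UNC0638 array was left out (-0.52 to -0.29). The change from DMSO missed the threshold when any 1 of the DMSO or combination arrays was left out, and ranged from -0.49 to -0.43. The other probe, A_33_P3330323 (chr15:42021388-42021447), changed by 0.02 ± 0.14 with the combination (adjusted p = 0.92).

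Counted over the list, 12 of 20 members tested were called with the combination against DMSO in MM.1S, 4 higher and 8 lower, where 53.8% of all 25102 probes were called (22.2% higher and 31.7% lower). With UNC0638 in MM.1S 6 of 20 were called (2 higher, 4 lower), beside 29.3% of all probes, and with GSK126 1 of 20 (lower), beside 7.56%. The combination was called against GSK126 for 6 of 20 (3 higher, 3 lower), beside 37.1%, and against UNC0638 for 6 of 20 (4 higher, 2 lower), beside 13.4%. Each MM.1S share was near its background except the last, at 30% of members, and that count fell to between 0 and 4 when any 1 MM.1S array was left out. The other counts moved too. Over all other settings the 12 ranged from 7 to 13, the 6 with UNC0638 from 3 to 8 and the 1 with GSK126 from 0 to 5. The 6 against GSK126 ranged from 3 to 6.

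In RPMI-8226, 1 of 21 members was called with the combination against DMSO, the MYC P0 probe, where 12.4% of 23199 probes were called. The same probe was the 1 member lower with the combination than with GSK126, beside 2.55%, and than with UNC0638, beside 3.39%. It passed the filter only through the groups where it is high, since 1 of 2 combination arrays was well above background. A filter for all arrays left 0 members called in each of these comparisons. With GSK126 alone (0.599% of probes) and UNC0638 alone (0.634%) limma called 0 of 21 in each, and 0 in each at an unadjusted p under 0.05.

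For the responses of the lines, 4 of 21 members differed with the combination (13.3% of 26931 probes), 1 with UNC0638 (2.89%) and 0 with GSK126 (0.783%), where 2 had an unadjusted limma p under 0.05. The 4 were both MYC probes, MXD4 A_23_P423695 and MNT A_33_P3246733. For the MYC P0 probe the MM.1S side was below background on every array, so that its difference of -2.02 (limma adjusted p = 0.0178) rests on an MM.1S change that was not measured and does not show that the responses differ. It became -0.55 under normexp, and its call was lost without RPMI-8226 DMSO replicate 2, MM.1S DMSO replicate 2 or combination replicate 2 of either line (-1.98 to -1.83). With DMSO 11 of 21 members differed between the lines, 5 higher and 6 lower in RPMI-8226, beside 57.7% of all probes. The MYC P0 probe is among the 5 and passed the filter only through RPMI-8226, where it is high. Besides MYC, MYCN, MXD3 and MXD4, these were MAX A_23_P151662 and A_23_P205549 (0.68 and 0.75), MXI1 A_33_P3383029 (0.97), MNT A_33_P3246733 (-0.51) and MLX A_23_P164148 (-0.74), with limma adjusted p from 0.000269 to 0.00603. The first MAX probe (0.47) and MNT (-0.39) lost their call without MM.1S DMSO replicate 1, and MNT was -0.20 under normexp.

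**Figure D3:**
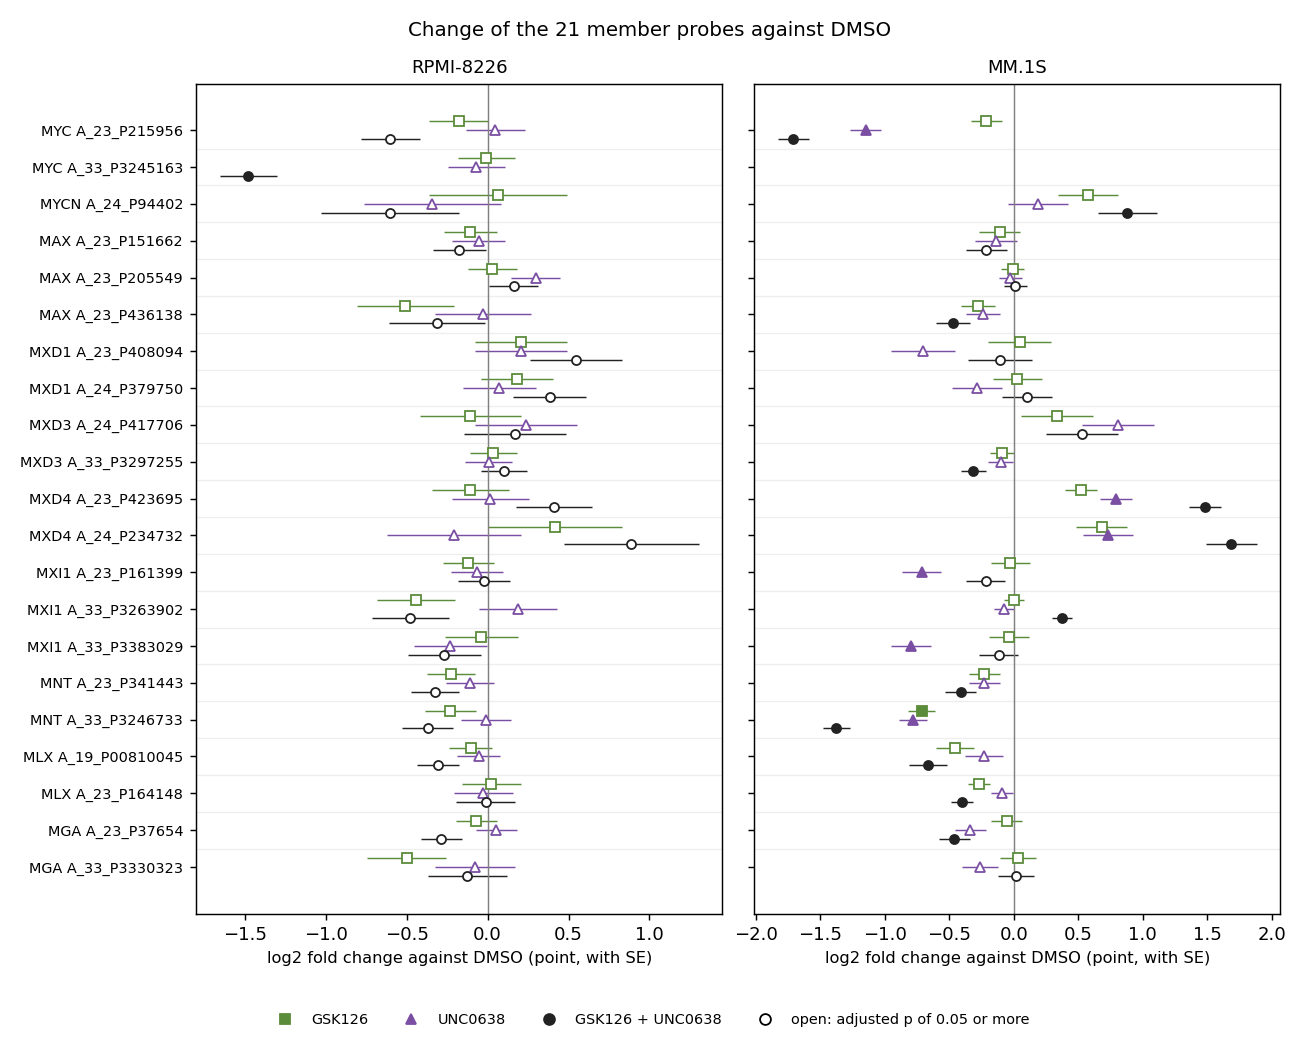
Log2 fold change against DMSO of the 21 member probes in RPMI-8226 (left) and the 20 tested in MM.1S (right), with SE bars, for GSK126, UNC0638 and the combination, filled where the adjusted p was under 0.05. In RPMI-8226 the only filled point is the MYC P0 probe at -1.48, which passed the filter only through the groups where it is high. In MM.1S 12 combination points are filled, from -1.71 (MYC) to 1.69 (MXD4).

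Over the 16 arrays, centred on each line's mean, the 5 probes most like MYC A_23_P215956 among 21370 were those of COQ3 (r = 0.99), an enzyme of coenzyme Q synthesis, NOP58 (0.99), a ribosomal RNA modification factor, SNRPE (0.98), a splicing protein, MYBBP1A (0.98), a nucleolar protein, and EBPL (0.98). The 5 most opposite were KIAA0913 (-0.98), CAPN12 (-0.97), TRADD (-0.97), an adaptor of the TNF receptor, CEACAM1 (-0.96), a cell adhesion molecule, and RGL2 (-0.96). These were the extremes of many probes and are given as a description, since the arrays of a group share their treatment and those of a line their slide. Among the members, MXD4 A_23_P423695 ran opposite to MYC (r = -0.93 over all 16 arrays, -0.84 in RPMI-8226 and -0.95 in MM.1S) and MGA A_23_P37654 with it (0.92, 0.96 and 0.93). Probes of 1 gene differed in this, since the second MXD4 probe gave -0.82 and the second MGA probe 0.12 over all 16 arrays, and the MAX probes gave -0.01 (A_23_P205549), 0.46 (A_23_P151662) and 0.51 (A_23_P436138).

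**Figure D4:**
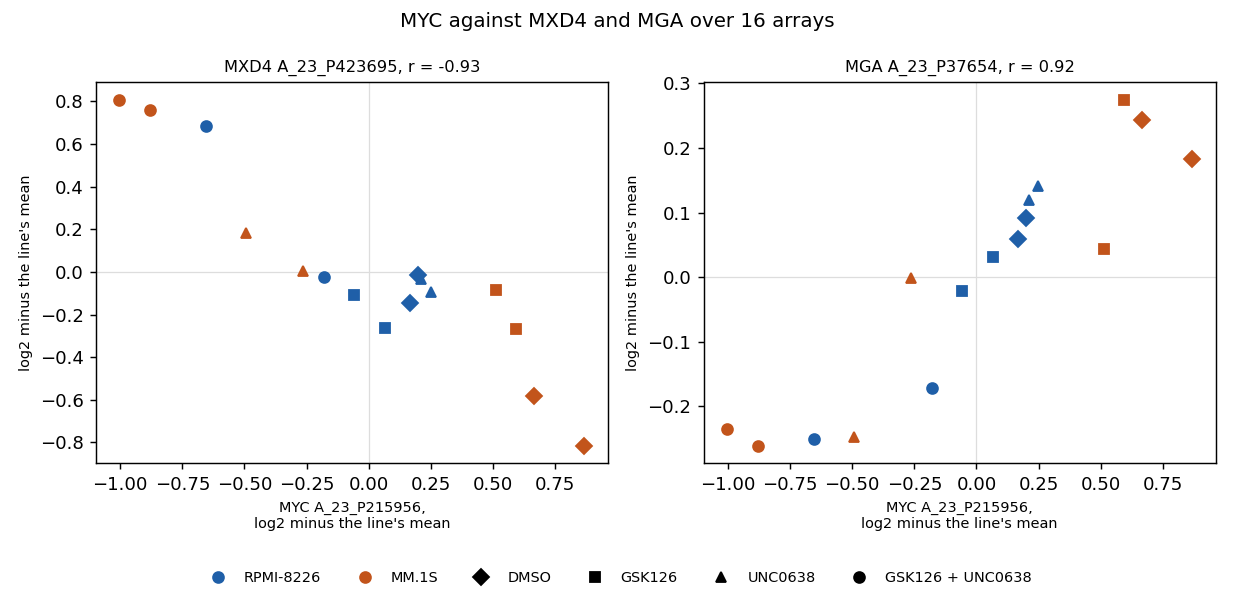
MXD4 A_23_P423695 (left) and MGA A_23_P37654 (right) against MYC A_23_P215956 on the 16 arrays, each value the log2 signal minus the mean of its cell line, with colours for the line and shapes for the treatment. The MXD4 probe runs against MYC (r = -0.93) and this MGA probe with it (r = 0.92; the other MGA probe, not drawn, gave 0.12), with the combination arrays at the low MYC end.

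Genes that MYC is known to activate were lower in MM.1S given the combination. Their list was drawn from general knowledge and not from a database. It was chosen with earlier results of these data known, so its counts are given as a description. Of 70 such genes tested, 70 were called lower and 0 higher, with a median log2 change of -1.06 and a range from -3.35 to -0.49, where 32.7% of 18752 genes were lower and the median of all genes was -0.13. With UNC0638 55 of 70 were lower (median -0.53, with 17.2% of all genes lower and a median of -0.07 over all), and with GSK126 3 of 70 (median -0.26, with 2.42% lower and a median of -0.05). The GSK126 count ran from 0 to 25 over the other settings, and the UNC0638 count fell to between 24 and 34 without DMSO replicate 1 or either UNC0638 array. Under quantile normalization the 3 medians were -0.81, -0.37 and -0.15. None was called higher with either agent.

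The 3 activated genes with the largest falls in MM.1S given the combination were TERT, the catalytic subunit of telomerase (-3.35 ± 0.16, limma adjusted p = 0.000126), SRM, which makes spermidine (-1.97 ± 0.12, adjusted p = 0.000211), and RRP12, a ribosome assembly factor (-1.79 ± 0.18, adjusted p = 0.000636). In RPMI-8226, 5 of the 70 were lower with the combination and 0 higher, with a median of -0.42, where 4.98% of 17578 genes were lower and the median of all was -0.12. With the replicate number as a block, 10 were called, and over the other settings the count ran from 0 to 34, with the median between -0.53 and -0.23. The 3 largest called falls there were TERT (-2.61 ± 0.55, limma adjusted p = 0.0302), the replication helicase subunit MCM4 (-0.80 ± 0.19, adjusted p = 0.0431) and the RNA exosome subunit EXOSC5 (-0.72 ± 0.16, adjusted p = 0.0376). With GSK126 or UNC0638 alone limma called 0 of the 70 in RPMI-8226 and 0 had an unadjusted p under 0.05, with medians of -0.05 and -0.01. In the RefSeq promoters of these genes, 17 of 71 (23.9%) held CACGTG in the same 250 bases, against 6.34% of 35116 promoters searched the same way. The genes were listed as MYC targets, so this share is not a separate test of MYC's action.

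Genes that MYC is known to repress rose more often than they fell in MM.1S given the combination. This list too was drawn from general knowledge, with earlier results of these data known. Of 14 tested, 8 were higher and 2 lower, with a median of 0.44. Over all genes 22.2% were higher and 32.7% lower, with a median of -0.13. The list's median was 0.86 under quantile normalization. The largest rises were in the cell cycle inhibitor CDKN1C (1.79 ± 0.15, limma adjusted p = 0.000441), the atypical cyclin CCNG2 (1.69 ± 0.09, adjusted p = 0.000135) and TXNIP, which limits glucose uptake (1.55 ± 0.31, adjusted p = 0.00765). The 2 that fell were the stress factor DDIT3 (-0.81 ± 0.20, adjusted p = 0.0156) and NDRG1 (-0.67 ± 0.16, adjusted p = 0.0148). In RPMI-8226, where 7.78% of all genes were higher and 4.98% lower, 1 of 14 rose, the zinc finger factor KLF6 (1.04 ± 0.21, adjusted p = 0.0263), and 1 fell, the stress-inducible GADD45B (-1.20 ± 0.26, adjusted p = 0.0337). With the replicate number as a block 5 of these 14 were called, and without either DMSO array 0.

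**Figure D5:**
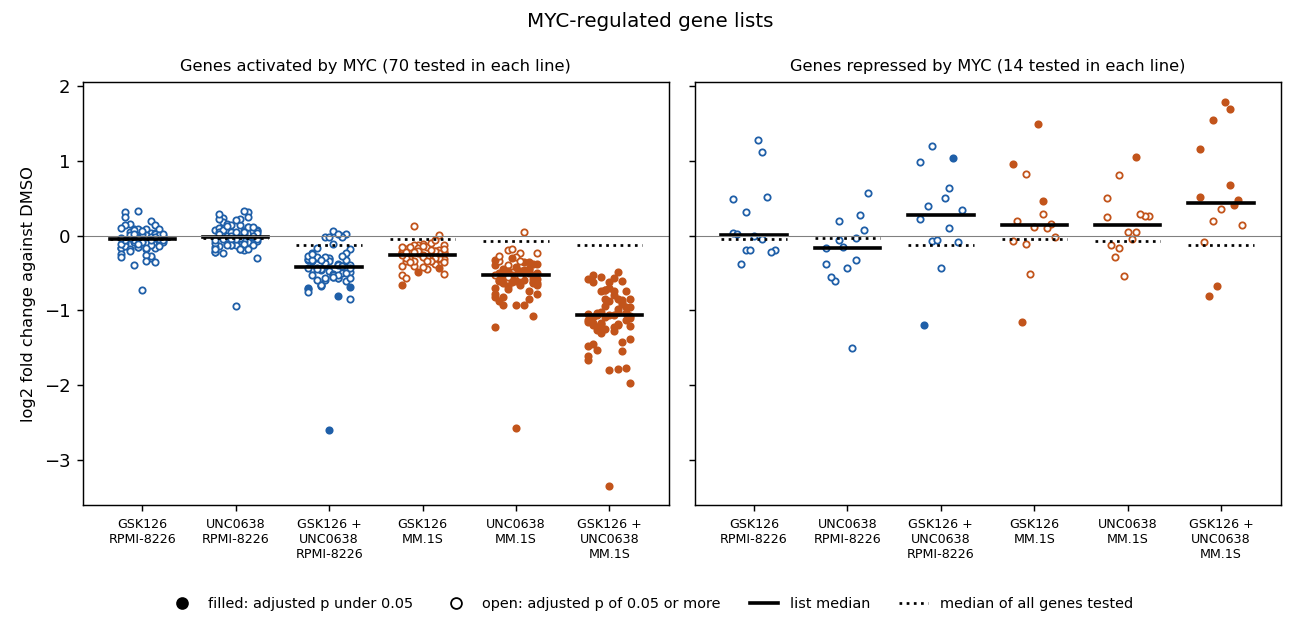
Log2 fold change against DMSO of 70 genes listed as activated and 14 listed as repressed by MYC, for each agent and line. Points are filled where the adjusted p was under 0.05, with solid bars at the list median and dotted bars at the median of all genes tested. The medians of the activated genes in MM.1S step down from -0.26 with GSK126 to -0.53 with UNC0638 and -1.06 with the combination.

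Among 24 cofactors and regulators of the network tested, 10 were lower and 1 higher with the combination in MM.1S, and 4 were lower and 0 higher in RPMI-8226. Over all genes 32.7% were lower and 22.2% higher in MM.1S (54.9% called), and 4.98% lower and 7.78% higher in RPMI-8226, so that the MM.1S count lay below the share of all genes called. The MYC-bound ATPases RUVBL2 and RUVBL1 fell in MM.1S (-1.37 ± 0.12 and -1.23 ± 0.11, limma adjusted p = 0.000427 and 0.000535), as did IRF4 (-1.19 ± 0.12, adjusted p = 0.000735). The gene that rose was SIN3B, the corepressor of the MXD proteins (0.38 ± 0.08, adjusted p = 0.0101). The list's median in MM.1S, -0.19 beside -0.13 over all genes, was -0.0096 under quantile normalization. In RPMI-8226 the largest called falls were IRF4 (-1.70 ± 0.19, limma adjusted p = 0.00316), the corepressor NCOR1 (-1.69 ± 0.23, adjusted p = 0.00703) and RUVBL2 (-0.82 ± 0.19, adjusted p = 0.0415), and 2 or 3 of the 24 were called there when any 1 array was left out. PCGF6 and L3MBTL2, which sit with MGA in 1 complex, changed by -0.69 and -0.89 in MM.1S, both called (adjusted p = 0.00231 and 0.000753), and by -0.58 and -0.52 in RPMI-8226, of which PCGF6 was called (adjusted p = 0.041). These 2 were chosen as partners of MGA after their values were seen, and they do not stand for the whole complex.

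Of 13 genes that act on the stability of the MYC protein, 3 were higher and 6 lower with the combination in MM.1S, and 1 of 12 was higher and 0 lower in RPMI-8226, where the count was 2 with the replicate block and 0 when any 1 array other than combination replicate 2 was left out. Over all genes 22.2% were higher and 32.7% lower in MM.1S, and 12.8% were called in RPMI-8226. FBXO32, a muscle-wasting ubiquitin ligase subunit, rose in both lines (2.57 ± 0.54 in RPMI-8226 and 1.74 ± 0.14 in MM.1S, limma adjusted p = 0.0302 and 0.000371). FBXW7, the ligase subunit that marks MYC for destruction, rose by 0.36 ± 0.10 in MM.1S (adjusted p = 0.0278), and the phosphatase subunit PPP2R5A by 0.34 ± 0.07 (adjusted p = 0.0103). The largest falls were in SKP2, another ligase subunit that acts on MYC (-1.48 ± 0.10, adjusted p = 0.000225), the pseudokinase TRIB3 (-1.26 ± 0.16, adjusted p = 0.00139) and the mitotic kinase AURKA (-0.89 ± 0.11, adjusted p = 0.00132). Protein levels were not measured on the arrays.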

How the data were processed

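Per the labels and the study's methods, total RNA was labelled with 1 dye and hybridised on Agilent arrays, and the submitters' processing notes name Agilent Feature Extraction 10.7. The deposited values are intensities: the authors' background-subtracted processed signal of each spot. The methods name GeneSpring GX and state neither a normalization nor a test for the arrays. The deposited table of the whole series holds the same intensity rounded, equal for 99.9956% of values within 1e-06.

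From these, log2 of the processed signal minus log2 of each array's 75th percentile over 58717 non-control spots was computed, spots of a probe were averaged without outlier flags (220 to 358 spots per array), and no spot was saturated. Probes well above background on every array of at least 1 group were tested with limma 3.58.1 in R 4.3.3 (lmFit, eBayes, Benjamini-Hochberg), in a fit per line (8 arrays) or over 16 arrays for comparisons between lines. The pipeline was tested on simulated data. For a gene list, the probe with the highest mean stood for a gene.

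Same-numbered replicates deviated together in RPMI-8226 (r from 0.25 to 0.42 in 6 of 6 pairs of groups) but not in every pair in MM.1S (r from 0.084 to 0.22, over 0.1 in 5 of 6), so the numbers count as pairing in RPMI-8226 from the data only. The slide could not be fitted as a block, since each line has 1 slide. The genes named were all members with every probe, the 3 largest called rises and falls per list and line with the combination, and the 5 probes most and least like MYC. PCGF6 and L3MBTL2 fall outside this rule and were named after their values were seen. The members and lists were chosen with earlier results of these data known. Alternatives covered background correction (normexp, offset 50), scaling, filter, prior variance, samples in the fit, replicate block, probe choice and leaving out each array.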

Additional observations from a re-analysis of the deposited data

Results flagged for a closer look

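4 responses measured in both lines differed between RPMI-8226 and MM.1S by a test of the difference itself, as the log2 change in RPMI-8226 minus that in MM.1S. MYC mRNA (A_23_P215956) differed by 1.19 with UNC0638, with changes of 0.05 and -1.15 (limma adjusted p = 0.0216), and by 1.11 with GSK126 + UNC0638, with changes of -0.60 and -1.71 (limma adjusted p = 0.0103). The first of these calls was lost in 5 of 25 alternatives and the second in 1. MXD4 A_23_P423695 differed by -1.07 with the combination, with changes of 0.41 and 1.48 (limma adjusted p = 0.0324), a call lost in 9 of 25 alternatives, with values from -1.43 to -0.72. MNT A_33_P3246733 differed by 1.00, with changes of -0.37 and -1.37 (limma adjusted p = 0.0066), and kept its call in all 25. The MYC P0 probe A_33_P3245163 also passed, at -2.02 (limma adjusted p = 0.0178), but it was not well above background on any MM.1S array, so the value does not show that the responses differ.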

How the results depend on the processing

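The falls of MYC mRNA with UNC0638 and with the combination in MM.1S, the rises of both MXD4 probes and the fall of MNT A_33_P3246733 with the combination kept their call under all 18 alternatives, although normexp reduced the MNT fall from -1.37 to -0.83. Member counts moved as follows. With the combination against DMSO in RPMI-8226, 1 became 2 under normexp, the intensity-dependent prior or 1 fit of all 16 arrays and 0 under a filter for all arrays (1 to 2 when 1 array was left out). Against GSK126 there, 1 became 0 under normexp, the filter for all arrays or a fit of only the groups compared. Against UNC0638, those 3 gave 0, the prior 2 and the fit of 16 arrays 3 (0 to 1 leaving out an array). For GSK126 in MM.1S, 1 became 4 under normexp, 0 without a filter, 2 under the filter for all arrays, 4 with the replicate block, 5 with the prior and 0 with only the groups compared (0 to 1). The 6 with UNC0638 in MM.1S ranged from 3 to 8 over all alternatives (3 to 7 leaving out an array), the 12 with the combination from 7 (no filter) to 13 (replicate block), with 7 to 12 leaving out an array, and the 6 against GSK126 from 3 to 6. The 6 against UNC0638 became 0 without a filter or with only the groups compared, 1 with the fit of 16 arrays, and 0 to 4 leaving out an array. The 1 response difference to UNC0638 became 2 under the filter for all arrays or the replicate block (0 to 2), and the 4 to the combination 2 with only the groups compared (2 to 5). The replicate block moved no other member count by over 1.5 times.

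For the lists, quantile normalization moved the median of activated genes to -0.23 in RPMI-8226 and -0.81 in MM.1S with the combination, to -0.15 and -0.37 with GSK126 and UNC0638 in MM.1S, and turned it to 0.028 and 0.011 with GSK126 and UNC0638 in RPMI-8226 (-0.17 to 0.078 and -0.12 to 0.10 leaving out an array). It moved the MM.1S medians of partners to -0.0096, turnover genes to -0.14 and repressed genes to 0.86. Calls with the combination in RPMI-8226 changed for activated genes from 5 to 3 (quantile or detected-probe median), 12 (normexp), 0 (no filter or only the groups compared), 10 (replicate block), 21 (prior), 34 (1 fit) and 0 to 5 leaving out an array. Partners went from 4 to 2 (no filter or only the groups compared), 7 (1 fit) and 2 to 3. Turnover genes went from 1 to 2 (normexp, replicate block or prior), 3 (1 fit), 0 (no filter or only the groups compared) and 0 to 2. Repressed genes went from 2 to 5 (replicate block), 0 (no filter or only the groups compared) and 0 to 2. Activated genes called with GSK126 in MM.1S went from 3 to 1 (quantile or 1 fit), 12 (normexp), 0 (no filter or only the groups compared), 8 (filter for all arrays), 25 (prior) and 0 to 1, and those with UNC0638 from 55 to 24 to 57 leaving out an array.

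Values near 0 changed sign. The MYC P0 probe with GSK126 in RPMI-8226 became 0.068 under normexp and 0.022 under scaling on detected probes (-0.10 to 0.086 leaving out an array), with UNC0638 it ranged from -0.14 to 0.0070, and its GSK126 response difference from -1.09 to 0.18. The GSK126 response difference of MYC mRNA became -0.015 under quantile normalization (-0.067 to 0.14). Normexp was run with an offset of 50 added to every signal, which makes log2 changes of dim probes smaller. How far the offset accounts for the shifts under normexp was not tested, nor was the cause of the others. The share of all calls with the combination in RPMI-8226 that were higher was 58.2%, against 50.7% under quantile normalization and 66.6% under detected-probe scaling. With 2 arrays a group, the number of arrays limits precision, and the values of the P0 probe, near background, depended on the background correction.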
